A study of Mus musculus with 18 samples.

Results

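The genes described here were 10 genes of the major histocompatibility complex (MHC) class I antigen processing pathway, namely the heavy chains H2-K1 and H2-D1, their light chain B2m, the peptide transporter subunits Tap1 and Tap2, the loading chaperone Tapbp, the transactivator Nlrc5 and the immunoproteasome subunits Psmb8, Psmb9 and Psmb10. They were taken by gene name from the 21734 protein-coding genes of a count table, and all 10 were among the 11357 genes kept by the filter on low counts. RNA was sequenced from macrophages that were differentiated from bone marrow (BMDMs) with the growth factor M-CSF, at 10 ng/ml and for 8 to 9 days. The donors were mice of mixed 129/B6 strain aged 6 to 7 months, 3 mice per genotype. The genotypes were miR-146 wild-type (WT), the deletion of mir-146a (KO), and the 3′F allele (3′F), in which mir-146a carries a changed 3′ part. BMDMs of each genotype received fresh medium without LPS (resting) or with 1 ng/ml of LPS, a bacterial cell wall lipid that activates toll-like receptor signaling, and were harvested after 16 h, giving 3 libraries in each of 6 groups and 18 in all. All groups shared the strain, the age range, the M-CSF culture and the medium change. The KO and 3′F alleles were each made by targeting embryonic stem cells, and with 3 mice and 6 libraries per genotype, resting and LPS cultures shared mice, though the labels did not say which numbers belonged to which mouse. The count columns gave resting and LPS libraries of the same number the same letter (A, B or C), without saying that a letter marks a mouse.

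MHC class I molecules display peptides from inside the cell to CD8 T cells. The proteasome cuts cytosolic proteins into peptides, TAP1 and TAP2 carry these into the endoplasmic reticulum, and tapasin, the product of Tapbp, holds the heavy chain and β2-microglobulin at the transporter until a peptide binds. Interferons raise the pathway in part through IRF1 and NLRC5, and they exchange the constitutive catalytic subunits PSMB5, PSMB6 and PSMB7 for PSMB8, PSMB9 and PSMB10, while macrophages make type I interferon after LPS. miR-146a is induced by NF-κB and represses the signaling adaptors IRAK1 and TRAF6.

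The libraries held 4071084 to 19818043 counts, the fewest in resting 3′F replicate 3. The macrophage genes Adgre1, Csf1r, Cd68, Itgam, Mertk and Lyz2 were detected in every library, with summed levels of 30994 to 85032 CPM (counts scaled to a total of 1e+06 per library, after correction by the trimmed mean of M values, TMM). Marker lists of other cell types were low, at 0.449 to 11.2 CPM for T and NK cells, at most 1.17 for B cells, at most 3.98 for dendritic cells, at most 2.96 for fibroblasts and 13.0 to 64.1 for neutrophils. Resting KO replicate 3 stood apart from the other resting libraries. Its summed level of 8 interferon-response genes was 6976 CPM, against 383 and 253 in the other resting KO libraries and 45.7 to 125 in resting WT. On the first principal component of all genes kept, which held 61.8% of the variance, it lay at 19.7, between resting WT (-62.4 to -51.9) and LPS-treated KO (58.8 to 70.6). Its Adgre1 level was 1134 CPM, below every LPS-treated library (3235 to 4895). Calls for the 10 genes in comparisons that use resting KO are therefore given with and without it. In the other comparisons it still enters the spread shared by all groups, and only fits of the compared groups alone leave it out. Resting 3′F replicate 3, the shallowest library, lay apart on the second component (10.2% of the variance), at 50.3 against -5.32 and -4.50 for the other resting 3′F libraries. The table held no row for mir-146a, so the genotypes were not checked against it, and in bulk RNA fewer expressing cells and less RNA per cell cannot be told apart.

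The promoters of the 2 heavy chains and of their light chain are shown first, since class I promoters are known for interferon, κB and SXY-box elements close to the start. Each sequence is the 250 bases before the RefSeq start on the GRCm38.p6 build, written 5′ to 3′ on the gene's strand, with capitals for matches on either strand to an interferon regulatory factor core (AANNGAAA), a gamma-activated site (TTCNNNGAA), a κB motif (GGGNNNNNCC), the CRE or X2 core (TGACG) and the CCAAT or Y box core (ATTGG). H2-K1 was read from chr17:34000348-34000597 on the minus strand, H2-D1 from chr17:35262844-35263093 on the plus strand and B2m from chr2:122147437-122147686 on the plus strand.
H2-K1: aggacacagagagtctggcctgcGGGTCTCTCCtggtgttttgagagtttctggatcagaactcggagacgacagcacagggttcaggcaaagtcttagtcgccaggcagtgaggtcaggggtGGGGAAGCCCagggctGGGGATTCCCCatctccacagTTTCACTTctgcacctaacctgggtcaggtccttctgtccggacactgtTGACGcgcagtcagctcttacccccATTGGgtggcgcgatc
H2-D1: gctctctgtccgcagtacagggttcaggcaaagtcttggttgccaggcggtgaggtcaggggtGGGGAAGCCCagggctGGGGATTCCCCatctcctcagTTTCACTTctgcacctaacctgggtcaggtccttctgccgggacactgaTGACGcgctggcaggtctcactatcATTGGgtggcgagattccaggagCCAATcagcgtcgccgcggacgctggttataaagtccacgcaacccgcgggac
B2m: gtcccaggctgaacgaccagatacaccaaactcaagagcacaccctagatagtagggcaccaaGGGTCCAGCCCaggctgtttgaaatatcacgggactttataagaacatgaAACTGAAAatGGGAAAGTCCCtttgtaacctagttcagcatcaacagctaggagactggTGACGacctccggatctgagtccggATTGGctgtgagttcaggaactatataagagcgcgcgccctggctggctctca
In H2-K1 the interferon regulatory factor core lay at -90 to -83, the CRE or X2 core at -41 to -37 and the CCAAT or Y box core at -16 to -12, counted from the base before the start as -1. In H2-D1 they lay at -150 to -143, at -101 to -97 and at both -76 to -72 and -53 to -49, and in B2m at -137 to -130, at -78 to -74 and at -53 to -49. The H2-K1 and H2-D1 windows were identical at 166 of 190 aligned bases (87.4%), at an offset of -60 bases. The positions of their shared elements therefore depend on where each start is annotated. In Gencode M21 the H2-D1 window lies inside the H2-D1 gene, as do the Psmb8, Psmb9 and Tapbp windows counted below in theirs.

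Tap1 and Psmb9 lie head to head on chromosome 17, and 225 bases separate their RefSeq starts, a stretch shown because it lies before both of these starts. In Gencode M21 the genes overlap, with 212 exonic bases shared on opposite strands. This overlap runs from the Tap1 start at chr17:34187553 to the start of the minus-strand Psmb9 gene at chr17:34187764, mostly past the stretch shown. The stretch is given on the Tap1 strand, from chr17:34187331-34187555, with capitals as above.
Tap1-Psmb9: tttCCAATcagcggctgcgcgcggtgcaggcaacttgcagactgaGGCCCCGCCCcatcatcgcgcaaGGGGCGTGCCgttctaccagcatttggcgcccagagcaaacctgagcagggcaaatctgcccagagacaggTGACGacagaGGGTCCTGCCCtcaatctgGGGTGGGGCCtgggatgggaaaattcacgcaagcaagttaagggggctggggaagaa
It held κB, CRE or X2 and CCAAT or Y box letters and no match to the interferon regulatory factor core or the gamma-activated site. Among the 8 genes with a window in the reference used, 3 held the interferon regulatory factor core, against 21.3% of 32851 windows of the same length. The gamma-activated site was in 1 of 8, Psmb8, against 7.02% of windows, the κB motif in 5 of 8 against 45.8%, the CRE or X2 core in 5 of 8 against 17.8% and the CCAAT or Y box core in 6 of 8 against 33.8%. Some κB matches overlap each other. The Tap1 and Psmb9 windows share the 225 bases above, so the same letters were counted for both genes. With the likeness of the H2-K1 and H2-D1 windows, the 8 windows are not 8 separate observations. A match is a run of letters in this window and not a binding site.

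The microRNA removed in KO is shown because its seed, bases 2 to 8 in capitals, defines the sites it can pair with.
miR-146a-5p: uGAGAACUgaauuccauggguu
Its 22 bases map to chr11:43374435-43374456 on the minus strand. A match to this seed was found once in the longest annotated 3′ untranslated region of H2-K1, H2-D1 and Tapbp, 3 of 10 genes (30%), against 4019 of 21425 genes (18.8%).

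Of the 10 genes, 7 lie on chromosome 17, and Psmb9, Tap1, Psmb8 and Tap2 lie within 34335 bases of it (Gencode M21, GRCm38). H2-K1 spans chr17:33996017-34000347 and H2-D1 chr17:35262730-35267499, B2m spans chr2:122147686-122153083, and Nlrc5 (chr8:94434356-94527272) and Psmb10 (chr8:105935735-105938444) are on chromosome 8. Psmb9 spans chr17:34181987-34187764 on the minus strand, Tap1 chr17:34187553-34197225, Psmb8 chr17:34197721-34201454, Tap2 chr17:34203527-34216321 and Tapbp chr17:33915899-33929292, the last 4 on the plus strand. Of the 50-base windows of the spliced transcripts, 8.79% in H2-K1 and 14.3% in H2-D1 also occurred in another gene, against 0 in B2m, Nlrc5, Psmb8, Psmb9 and Psmb10. Reads from such stretches can be lost or placed wrongly among the heavy chain genes, so the values of H2-K1 and H2-D1 are less certain than those of the other genes. Tapbp shares 149 exonic bases on its own strand with Zbtb22.

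**Figure D1:**
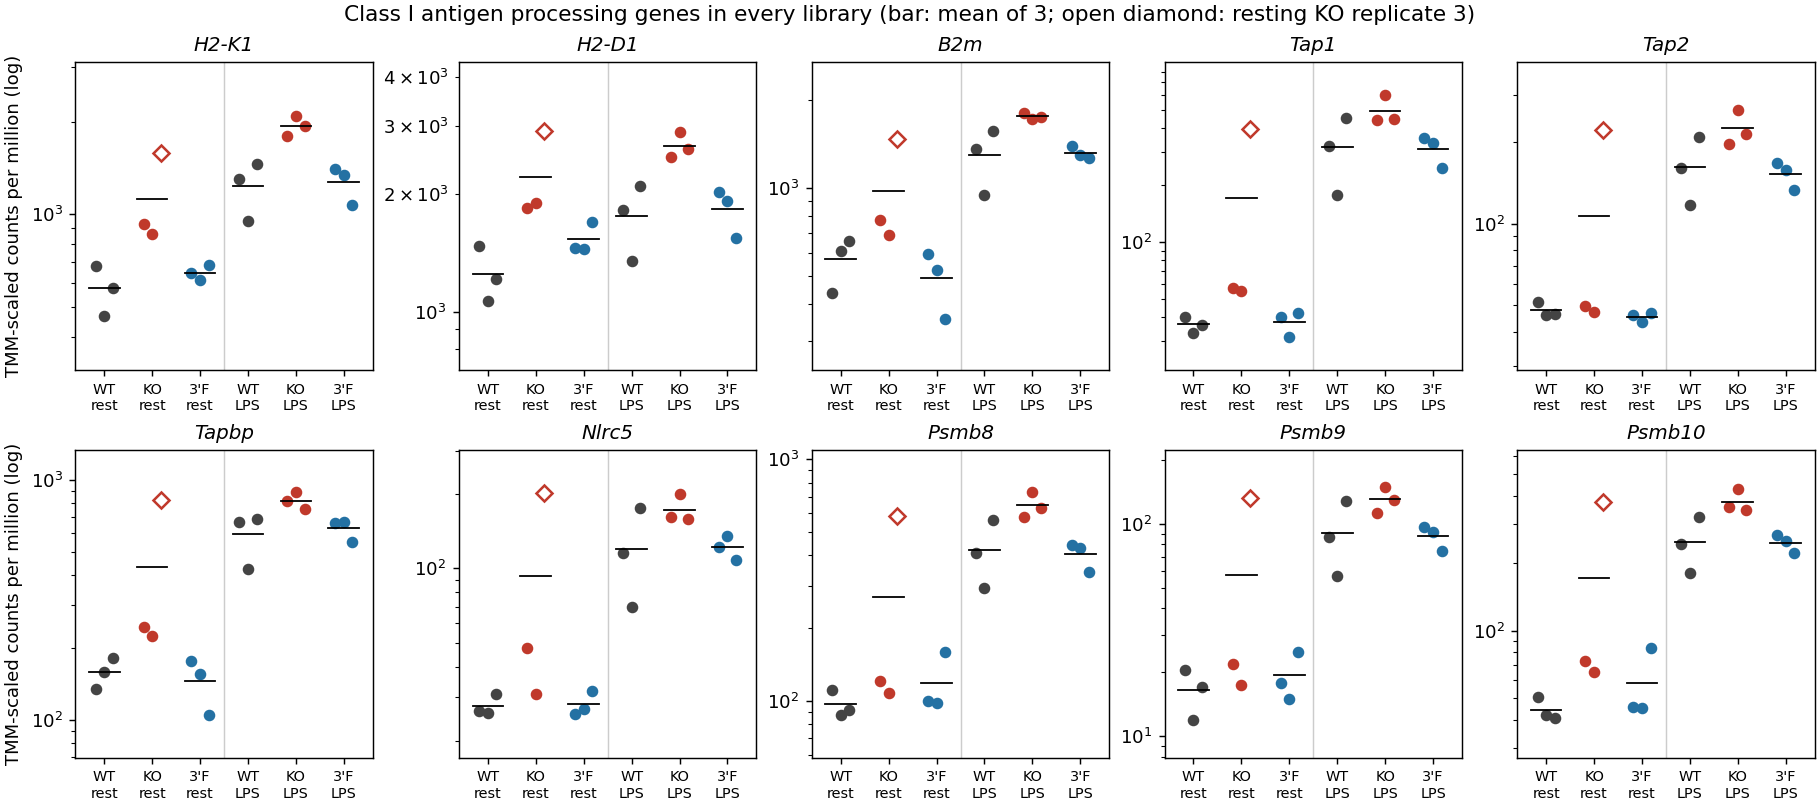
Levels of the 10 class I antigen processing genes in all 18 libraries, in TMM-scaled CPM on a log axis, with 1 point per library, a bar at the mean of 3 libraries and an open diamond for resting KO replicate 3. The LPS-treated libraries sit above the resting ones of the same genotype for 9 of the genes in WT and in 3′F, and the diamond sits near the LPS-treated libraries.

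Per kilobase of gene length, the light chain and the heavy chains were the most abundant of the 10 transcripts in resting WT BMDMs. B2m stood at 661 ± 136 CPM per kilobase (SD, n = 3), H2-D1 at 553 ± 91.6 and H2-K1 at 338 ± 62.7. B2m and H2-D1 overlapped between libraries, and H2-K1 lay below both. Psmb8 (57.9 ± 7.41) and Tapbp (54.9 ± 8.09) followed with overlapping libraries, then Psmb10 at 33.9 ± 4.09. Tap2 (13.6 ± 0.893) and Tap1 (12.4 ± 1.19) overlapped each other, Psmb9 (9.81 ± 2.56) overlapped Tap1, and Nlrc5 was lowest at 3.46 ± 0.354. After LPS the order in WT was B2m (1505 ± 367), H2-D1 (778 ± 169), H2-K1 (729 ± 152), Psmb8 (252 ± 81.0), Tapbp (206 ± 50.7), Psmb10 (189.9 ± 54.1), Tap1 (108 ± 46.9), Psmb9 (54.0 ± 21.4), Tap2 (45.9 ± 13.1) and Nlrc5 (15 ± 6.62). Tap1 thus moved from below Tap2 to above it.

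The first comparison asked how the pathway responds to LPS in each genotype. In WT, 9 of the 10 genes rose, by 1.11 (H2-K1) to 3.12 (Tap1) on the log2 scale, and H2-D1 missed the threshold. The median log2 fold change of the 10 was 2.01, against 0.02 for all genes tested, and 16.3% of all genes were called higher (edgeR quasi-likelihood test, Benjamini-Hochberg adjusted p under 0.05 over all genes kept, as for every call here). In 3′F the same count was called, 9 of 10, with a median of 1.94 against 17.2% of all genes called higher, and H2-D1 was again the exception. In KO only 3 of 10 were called, namely H2-K1, B2m and Tap1, with a median of 1.01 against 14.3% of all genes. Without resting KO replicate 3, all 10 genes were called in KO, the median was 2.18, and 20.2% of all genes were called higher. With the replicate number as a block the KO count was 9 of 10 (median 1.44, with 26.6% of all genes called in either direction, against 26.9% without the block). It was 10 with limma-voom weights, 5 with DESeq2 and 5 without the filter, but 0 when the KO groups were fitted alone, 0 without resting KO replicate 1 or 2 or LPS-treated KO replicate 2, and 1 without LPS-treated KO replicate 1 or 3.

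The heavy chains H2-K1 and H2-D1, the peptide-binding chains that CD8 T cells read, differed in their response. H2-K1 stood at 681, 468 and 577 CPM in resting WT and at 1307, 953 and 1458 after LPS. Every LPS library lay above every resting one, and the log2 fold change was 1.11 ± 0.22 (SE, adjusted p = 0.00121, edgeR). H2-D1 stood at 1470.3, 1061 and 1214 CPM at rest and at 1818, 1346 and 2102 after LPS. The highest resting library exceeded the lowest LPS library, and the log2 fold change of 0.49 ± 0.20 did not pass (adjusted p = 0.0720, edgeR). In 3′F, H2-K1 went from 643, 614 and 683 CPM to 1403, 1344 and 1073, without overlap, while H2-D1 stood at 1457, 1451 and 1696 at rest and 2022, 1924 and 1543 after LPS, with overlap (log2 fold change 0.25 ± 0.20, adjusted p = 0.339, edgeR).

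B2m encodes β2-microglobulin, the light chain needed by every class I heavy chain for its exit to the surface. Its levels were 437, 609 and 660.1 CPM in resting WT and 1365, 949.5 and 1569 after LPS. The groups did not overlap and the log2 fold change was 1.19 ± 0.26 (adjusted p = 0.00320, edgeR). In 3′F it stood at 592, 525 and 356 CPM at rest and at 1396, 1300.5 and 1267 after LPS, again without overlap (1.43 ± 0.27, adjusted p = 0.000811, edgeR).

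Tap1, the first subunit of the peptide transporter, had the largest fold change of the 10 genes in WT. It stood at 40.1, 33.1 and 36.5 CPM at rest and at 322, 177 and 454 after LPS, a fold of 8.69 (log2 3.12 ± 0.59, adjusted p = 0.00099, edgeR). Tap2, the second subunit, stood at 51.6, 45.9 and 46.4 CPM at rest and at 161, 117 and 209 after LPS, a fold of 3.38 (log2 1.76 ± 0.43, adjusted p = 0.00575, edgeR). Neither gene overlapped between groups. In 3′F the folds were 8.28 for Tap1, from 39.8, 31.3 and 42.1 CPM to 355, 332 and 246, and 3.38 for Tap2, from 46.1, 43.3 and 47.1 CPM to 168, 158 and 134.

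Tapbp, which holds the peptide-receptive heavy chain next to the transporter, stood at 135, 159 and 182 CPM in resting WT and at 669.8, 426 and 689 after LPS. The libraries did not overlap (log2 fold change 1.91 ± 0.38, adjusted p = 0.00146, edgeR). Nlrc5, the transactivator that binds class I promoters, was the least abundant, at 26.5, 25.8 and 31.0 CPM at rest and 116, 69.5 and 176 after LPS, also without overlap (2.12 ± 0.50, adjusted p = 0.00465, edgeR). In 3′F, Tapbp rose by 2.11 ± 0.38 and Nlrc5 by 2.13 ± 0.50 on the log2 scale, from 176, 155 and 105 CPM to 663, 670.4 and 553 and from 25.6, 26.8 and 31.8 CPM to 122, 136 and 108.

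The immunoproteasome subunits rose together in WT. Psmb8 stood at 111, 87.4 and 92.1 CPM at rest and at 409, 293 and 563 after LPS (log2 fold change 2.12 ± 0.48, adjusted p = 0.00348, edgeR). Psmb9 stood at 20.4, 11.9 and 17.1 CPM and rose to 87.1, 56.8 and 128 (2.46 ± 0.57, adjusted p = 0.00428, edgeR). Psmb10 stood at 50.5, 42.0 and 40.6 CPM and rose to 244, 181 and 322 (2.49 ± 0.50, adjusted p = 0.00163, edgeR). For all 3 subunits every LPS library lay above every resting library, and WT LPS replicate 2 was the lowest LPS library and replicate 3 the highest. The same order of WT LPS libraries held for the other 7 genes. In 3′F the log2 changes were 1.77 ± 0.47 for Psmb8, 2.22 ± 0.57 for Psmb9 and 2.1 ± 0.50 for Psmb10, with the resting libraries at 100.3, 98.0 and 159, at 17.9, 15.1 and 25.0, and at 45.5, 45.1 and 84.0 CPM and the LPS libraries at 443, 429 and 342, at 97.1, 91.5 and 74.3, and at 267, 252 and 221 CPM. The high resting values of all 3 subunits were those of replicate 3, the least deeply sequenced library.

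**Figure D2:**
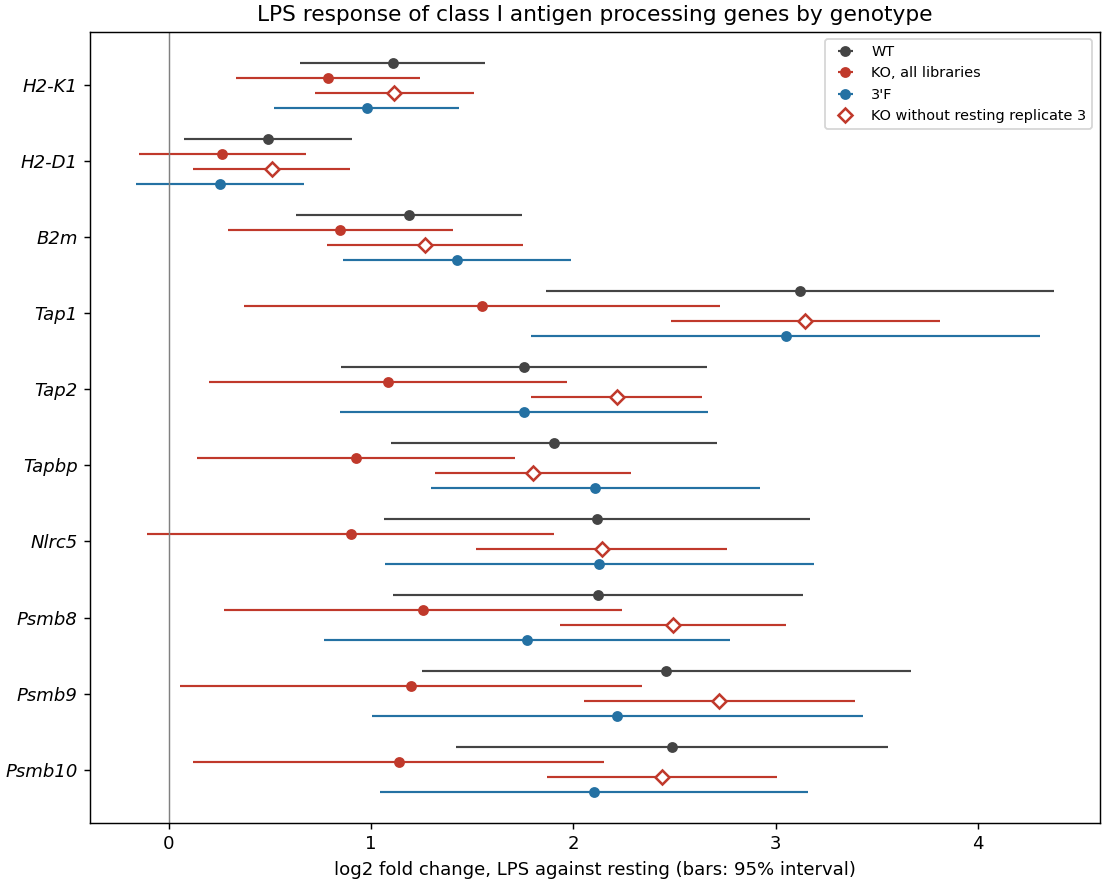
Log2 fold change of LPS-treated against resting BMDMs for each of the 10 genes (x axis), with 95% intervals, in WT, KO and 3′F and in KO without resting replicate 3 (open diamonds). The filled KO points lie left of the WT points for all 10 genes, with a median of 1.01 against 2.01, and the diamonds have a median of 2.18.

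In KO the resting group was spread by replicate 3, so the LPS response is best read library by library. Tap1 stood at 57.2, 54.9 and 398 CPM in resting KO and at 445, 598 and 445 after LPS. Psmb9 stood at 21.9, 17.4 and 133 CPM at rest and at 112, 149 and 129.9 after LPS, so that the high resting library lay within the LPS range. Nlrc5 was at 47.4, 31.0 and 202 CPM at rest and at 162, 200.1 and 158 after LPS, where the same library was above every LPS library. The remaining genes showed the same split of 2 low resting libraries and 1 high one. Tap2 stood at 49.6, 47.3 and 223 CPM at rest against 197, 264 and 214 after LPS. Tapbp stood at 245, 225 and 825 CPM against 814, 889.7 and 755, with the high resting library inside the LPS range. In the proteasome, whose interferon-induced subunits change the peptides made, the 2 low libraries were far below the LPS range. Psmb8 stood at 121, 108 and 581 CPM against 578, 730.0 and 626, and Psmb10 at 73.1, 65.5 and 376 CPM against 355, 428 and 344. H2-D1, at 1838, 1901 and 2909 CPM at rest and 2489, 2889.7 and 2609.9 after LPS, had its highest value of all 18 libraries in resting KO replicate 3. H2-K1 (928, 863 and 1584 CPM at rest, 1799.9, 2082 and 1941 after LPS) and B2m (774, 689 and 1469.9 CPM at rest, 1801, 1726 and 1753 after LPS) did not overlap between resting and LPS even with this library.

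With all libraries the log2 changes in KO were 0.79 ± 0.21 for H2-K1 (adjusted p = 0.0118, edgeR), 0.85 ± 0.26 for B2m (adjusted p = 0.0240, edgeR) and 1.55 ± 0.55 for Tap1 (adjusted p = 0.0487, edgeR). Without resting replicate 3 they were 1.12, 1.27 and 3.15, the last a fold of 8.85, and H2-D1 passed with 0.51 (adjusted p = 0.0399, edgeR). The difference of the LPS response between KO and WT, the interaction term, was called for 0 of the 10 genes, with 0.00881% of all genes called and 0 of 10 at an unadjusted p under 0.05. Its estimates ran from -1.57 (Tap1, 95% interval -3.22 to 0.07) to -0.23 (H2-D1, -0.81 to 0.36), with a median of -0.92. Without resting KO replicate 3 the median was 0.02, 8 of 10 estimates were above 0 and 0 were called. With the replicate block the median was -0.47 and 0 were called. The difference between 3′F and WT was called for 0 of 10 genes as well, with 0% of all genes called and 0 of 10 at an unadjusted p under 0.05. Its estimates ran from -0.38 (Psmb10, 95% interval -1.82 to 1.05) to 0.24 (B2m, -0.54 to 1.02). The WT libraries are shared by both differences.

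The second comparison asked whether the loss of miR-146a changes the pathway without LPS. In resting BMDMs, all 10 genes had a higher mean in KO than in WT, with a median log2 difference of 1.46 against 0.02 for all genes. H2-K1, H2-D1, Tap1, Tapbp, Nlrc5 and Psmb10 were called higher, 6 of 10, against 5.12% of all genes. Every KO library lay above every WT library for H2-K1, H2-D1, B2m, Tap1, Tapbp and Psmb10, 6 of 10, against 13.7% of all genes. Without resting KO replicate 3 only H2-K1 was called, 1 of 10, against 3.61% of all genes, and the median difference was 0.53, with all 10 estimates above 0 (0.02 to 0.64). Of the macrophage markers, Csf1r was higher in resting KO by 0.81 on the log2 scale (0.87 without replicate 3, adjusted p = 0.0159, edgeR). An entry of Itgam was lower, at -0.71 (-0.61 without replicate 3, adjusted p = 0.0279, edgeR). Another Itgam entry was not called (-0.85 without replicate 3, adjusted p = 0.455, edgeR), nor were Adgre1, Cd68, Mertk and Lyz2. The summed marker levels, which were not tested, were 59254 to 60403 CPM in resting KO, 30994 to 46991 in resting WT and 41697 to 61296 in resting 3′F. The part of these marker differences in the class I differences was not tested. The count of the 10 class I genes called was also 2, 0 and 1 without resting WT replicates 1, 2 and 3. It was 10 without resting KO replicate 2, 10 with DESeq2 and 0 when the compared groups were fitted alone.

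The heavy chains were higher in all 3 resting KO libraries. H2-K1 was at 928, 863 and 1584 CPM in resting KO against 681, 468 and 577 in resting WT, a log2 difference of 0.97 ± 0.22 (adjusted p = 0.0105, edgeR), which was 0.64 without replicate 3 (adjusted p = 0.0392, edgeR). H2-D1 was at 1838, 1901 and 2909 CPM against 1470.3, 1061 and 1214, a difference of 0.83 ± 0.20 (adjusted p = 0.0151, edgeR), which was 0.58 without it (adjusted p = 0.0596, edgeR). The other KO libraries alone were thus above all WT libraries for both genes. B2m differed by 0.78 ± 0.26 (adjusted p = 0.0736, edgeR) and by 0.36 without it. Its 2 other KO libraries, at 774 and 689 CPM, lay just above the highest resting WT library, at 660.1.

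Tap1 differed by 2.21 ± 0.57 (adjusted p = 0.0234, edgeR), Tapbp by 1.44 ± 0.38 (adjusted p = 0.0240, edgeR), Nlrc5 by 1.74 ± 0.49 (adjusted p = 0.0362, edgeR) and Psmb10 by 1.94 ± 0.49 (adjusted p = 0.0216, edgeR) with all libraries. Without replicate 3 these values were 0.62, 0.57, 0.50 and 0.64, and none of the 4 passed. For Tap2 the 2 other KO libraries, at 49.6 and 47.3 CPM, lay inside the WT range of 45.9 to 51.6, and its difference of 1.14 ± 0.42 became 0.02. Psmb8 went from 1.48 ± 0.47 to 0.24, with 121 and 108 CPM against 87.4 to 111 in WT, and Psmb9 from 1.78 ± 0.56 to 0.26. Neither Tap2, Psmb8 nor Psmb9 was called in either fit.

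**Figure D3:**
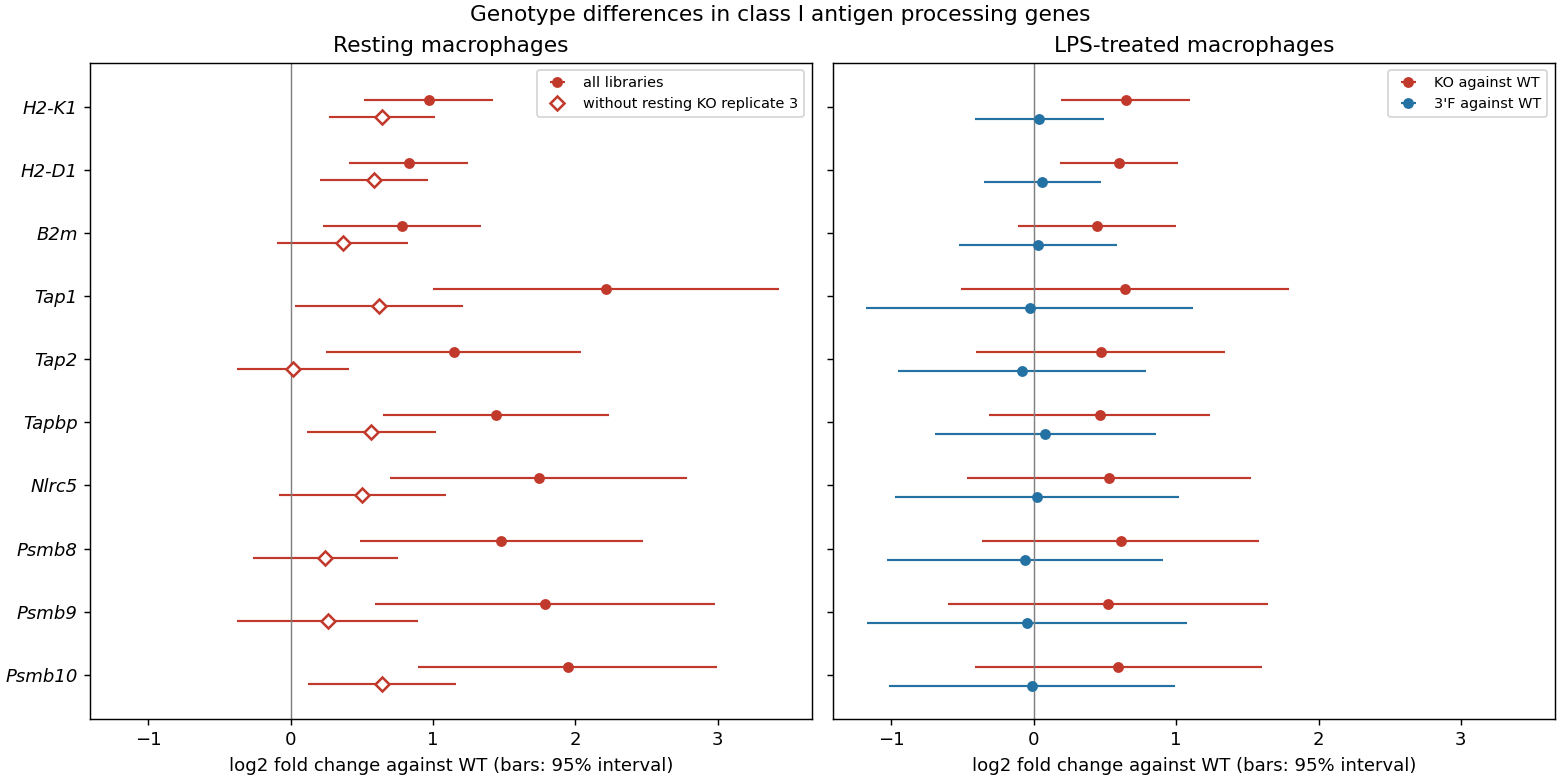
Log2 difference from WT for each of the 10 genes (x axis) with 95% intervals, for resting KO with all libraries and without replicate 3 (left panel) and for LPS-treated KO and 3′F (right panel). In the left panel the open diamonds lie between 0.02 and 0.64, and in the right panel all 10 KO points lie above 0, whereas the 3′F points lie between -0.08 and 0.08.

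After LPS all 10 genes had a higher mean in KO than in WT, but none was called. The median log2 difference was 0.56, against 0.01 for all genes, and 0 of 10 genes were called against 1.89% of all genes higher. The smallest adjusted p was 0.0900 (H2-D1, edgeR), and 2 of 10 genes had an unadjusted p under 0.05. Without LPS-treated WT replicate 2 the median was 0.32, and without replicate 3 it was 0.80. Every KO library lay above every WT library for 6 of 10 genes, against 16.9% of all genes. H2-K1 was at 1799.9, 2082 and 1941 CPM in KO and at 1307, 953 and 1458 in WT, without overlap (log2 difference 0.65 ± 0.21, 95% interval 0.19 to 1.1, adjusted p = 0.0958, edgeR). For Tap1 the lowest KO library, at 445 CPM, lay below the highest WT library, at 454, and the difference was 0.64 (95% interval -0.51 to 1.79).

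The third comparison asked whether the 3′F allele differs from WT, with the same WT libraries as above. In resting BMDMs the log2 differences ran from -0.21 (B2m, 95% interval -0.76 to 0.34) to 0.37 (Psmb10, -0.66 to 1.4), with a median of 0.11. After LPS they ran from -0.08 (Tap2, -0.96 to 0.79) to 0.08 (Tapbp, -0.70 to 0.86), with a median of 0.00. In both states 0 of 10 genes were called, against 0% of all genes at rest and 0.00881% after LPS in either direction, 0 of 10 had an unadjusted p under 0.05, and all 10 genes overlapped between the genotypes. For Tap1 the intervals were -1.15 to 1.23 at rest and -1.18 to 1.12 after LPS, and differences within these bounds were not detectable for that gene.

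KO and 3′F were also set against each other, with the same KO libraries as above. At rest 6 of 10 genes were called higher in KO, namely H2-K1, B2m, Tap1, Tapbp, Nlrc5 and Psmb10, against 6.79% of all genes, and 6 of 10 did not overlap, against 15.8% of all genes. The median difference was 1.4. Without resting KO replicate 3, 0 of 10 were called against 4.4% of all genes, the median was 0.38, and Psmb8 had the only estimate below 0, at -0.04. Without resting 3′F replicates 1, 2 and 3 the counts were 4, 2 and 1, and with the compared groups fitted alone 0. After LPS 0 of 10 were called against 1.51% of all genes, with 2 of 10 at an unadjusted p under 0.05 and a median of 0.56, while 10 of 10 were called when the compared groups were fitted alone, a fit that called 15.2% of all genes in either direction against 3.88% with all groups. Every KO library lay above every 3′F library for all 10 genes after LPS, against 19.4% of all genes. B2m gives an example, at 1801, 1726 and 1753 CPM in KO and 1396, 1300.5 and 1267 in 3′F.

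The immunoproteasome and transporter genes were then set against their partner subunits within each library, as ratios of CPM per kilobase, which do not depend on library scaling. The ratio of Psmb8 to Psmb5, which occupy the same catalytic place, was 1.59, 1.66 and 1.74 in resting WT and 4.32, 2.45 and 5.01 after LPS. It was 2.08, 2.0 and 6.93 in resting KO and 5.71, 6.37 and 6.49 after LPS. All resting KO libraries lay above all resting WT libraries, and replicate 3 lay above every other library of the series.

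The ratio of Psmb10 to Psmb7 was 0.299, 0.318 and 0.306 in resting WT, 0.674, 0.614 and 2.32 in resting KO and 0.336, 0.331 and 0.334 in resting 3′F. The 2 lower KO libraries were thus outside the WT and 3′F ranges by more than the spread between those libraries. After LPS it was 1.38, 0.873 and 1.61 in WT, 2.0, 2.40 and 1.89 in KO and 1.4, 1.51 and 1.24 in 3′F. The ratio of Psmb9 to Psmb6 was lowest of the 3, at 0.0441, 0.0358 and 0.0490 in resting WT, 0.0804, 0.0621 and 0.314 in resting KO and 0.163, 0.0904 and 0.221 in LPS-treated WT. Psmb6 stood at 163 and 167 CPM per kilobase in the 2 lower resting KO libraries, against 198 to 276 in resting WT. Psmb9 itself, at 21.9 and 17.4 CPM in these 2 libraries, overlapped resting WT at 11.9 to 20.4. Among the constitutive subunits themselves, Psmb5 rose by 0.89 on the log2 scale after LPS in WT (adjusted p = 0.0109, edgeR). The estimates were 0.60 for Psmb6 (adjusted p = 0.121, edgeR) and 0.43 for Psmb7 (adjusted p = 0.136, edgeR), and each of the 3 lay below that of its immunoproteasome partner. Between KO and WT, 0 of these 3 genes were called in either state, against 9.4% of all genes at rest and 4.79% after LPS. Without resting KO replicate 3 the resting log2 differences were -0.06 for Psmb5, -0.46 for Psmb6 and -0.43 for Psmb7, none of them called.

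The ratio of Tap1 to Tap2, whose products pair 1 to 1 in the transporter, was 0.930, 0.862 and 0.941 in resting WT and 2.40, 1.81 and 2.60 after LPS. In resting KO it was 1.38, 1.39 and 2.14, and after LPS 2.70, 2.72 and 2.49. The ratio of H2-K1 to H2-D1 was 0.614, 0.584 and 0.630 in resting WT and 0.954, 0.939 and 0.920 after LPS. In resting KO it was 0.670, 0.602 and 0.722, overlapping resting WT, and after LPS 0.959, 0.956 and 0.987. Resting KO replicate 3, which had LPS-like ratios for the immunoproteasome, was thus below every LPS-treated library (0.920 to 0.987) for the heavy chains. Over 30 exact two-sided permutation tests of 6 ratios, including Tap1 to Psmb9, in 5 comparisons, the smallest p was 0.1, which is the smallest that 3 against 3 libraries allow, and the smallest adjusted p was 0.130 (Benjamini-Hochberg). The LPS libraries lay above the resting ones for 6 of 6 ratios in WT and in 3′F and for 3 of 6 in KO. KO lay above WT for 4 of 6 both at rest and after LPS. No share over other gene pairs was computed, so these counts have no background to be read against. The 6 ratios were chosen and share genes, and the counts that use resting KO include replicate 3.

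**Figure D4:**
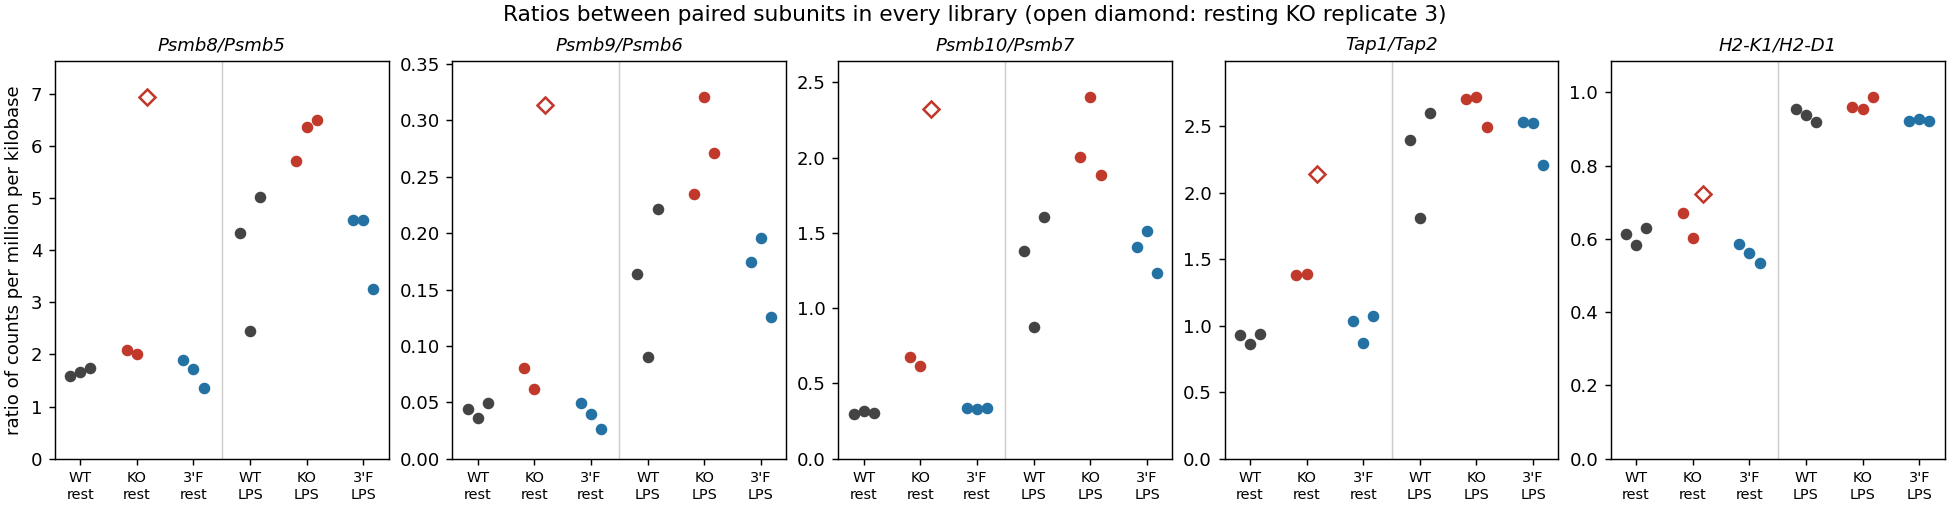
Ratios of CPM per kilobase between paired subunits in all 18 libraries, 1 point per library, with an open diamond for resting KO replicate 3. In the Psmb10/Psmb7 panel resting WT and 3′F lie between 0.299 and 0.336 and resting KO from 0.614 up, while in the H2-K1/H2-D1 panel every LPS-treated library lies at 0.920 or above and every resting library at 0.722 or below.

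Other class I heavy chains were described beside the 10 genes. Of 14 other class I and class I-like heavy chains tested (of 19 listed), 10 rose after LPS in WT, led by H2-M2 (5.24 on the log2 scale), H2-T24 (4.10) and H2-Q1 (3.35), and 1, the antigen-presenting molecule Mr1, fell by 0.61, with a median of 2.06, where 16.3% of all genes were called higher. Resting KO was above resting WT for 6 of 14, led by H2-Q6 (3.86), H2-T24 (3.57) and H2-Q7 (3.50), against 5.12% of all genes, and for 4 of 14 without replicate 3 (H2-Q6, H2-T24, Fcgrt and H2-Q4), against 3.61%. After LPS the only gene of this list called higher in KO was Fcgrt, the neonatal Fc receptor, by 1.04 (adjusted p = 0.0372, edgeR). The H2-Q and H2-T genes are close copies of each other, and reads can be split among them.

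Other steps of the pathway were covered by 3 further lists. Of 6 genes of peptide loading in the endoplasmic reticulum, Tapbpl (1.55), Erap1 (0.72), which trims peptides, and Calr (0.52), a chaperone, rose after LPS in WT and Uggt1 fell by 0.27, with a median of 0.35. The proteasome activator subunits Psme2 (2.42) and Psme1 (1.39) rose, as did Psme4 (0.59), 3 of 5 genes of activation and assembly. Among 6 cytosolic peptidases tested, 1, Tpp2, rose by 0.27. In the same comparison 16.3% of all genes were called higher, so 1 of 6 peptidases was near that share. In resting BMDMs, 0 genes of these 3 lists were called between KO and WT, against 9.4% of all genes in either direction. The median differences were 0.01 for peptide loading, 0.36 for the activator and assembly genes and -0.14 for the peptidases, against 0.02 for all genes.

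Of 12 regulators of class I transcription tested, 5 were called higher after LPS in WT, with a median of 0.37, where 16.3% of all genes were. These included Irf1 (2.12 on the log2 scale) and Rfx5 (0.89), a subunit of the complex that NLRC5 joins on class I promoters. In resting KO, 3 of 12 were called above WT, against 5.12% of all genes. These included Irf1 (1.44, adjusted p = 0.00368, edgeR) and Nfkb1 (0.52, adjusted p = 0.00900, edgeR). Irf1, which binds interferon-response elements, stood at 105, 95.2 and 154 CPM in resting KO against 38.2 to 50.6 in resting WT. Nfkb1, a subunit of NF-κB, stood at 175, 163 and 155 CPM in resting KO against 111 to 122, and there replicate 3 was the lowest KO library. Without replicate 3, Irf1 (1.21, adjusted p = 0.0117, edgeR) and Nfkb1 (0.56, adjusted p = 0.0108, edgeR) remained called, 2 of 12 against 3.61% of all genes. After LPS only Nfkb1 was called higher in KO, by 0.59 (adjusted p = 0.00612, edgeR), 1 of 12 against 1.89% of all genes.

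The 8 interferon-response genes moved with the class I genes. All 8 rose after LPS in WT (median 5.98), where 16.3% of all genes were called higher. In KO 0 of 8 were called (median 1.43) against 14.3% of all genes, or 8 of 8 without resting replicate 3 (median 4.37) against 20.2%. In resting KO 8 of 8 were above WT (median 5.08) against 5.12% of all genes, or 7 of 8 without replicate 3 (median 2.09) against 3.61%. The share of all counts taken by the 10 class I genes was 0.293% to 0.340% in resting WT, 0.456%, 0.431% and 0.847% in resting KO and 0.328% to 0.350% in resting 3′F. After LPS it was 0.465% to 0.682% in WT, 0.781% to 0.809% in KO and 0.542% to 0.654% in 3′F. Resting KO replicate 3 therefore had the largest share of all 18 libraries, on raw counts without TMM scaling. On TMM-scaled log2 CPM, standardized per gene, the mean of the 10 genes was 1.12 in this library and 1.33 in LPS-treated KO replicate 2. Interferon transcripts themselves were scarce. Ifnb1 had 0 counts in all resting WT libraries, 0, 2 and 6 in resting KO, 10, 5 and 11 in LPS-treated WT and 24, 30 and 13 in LPS-treated KO. Ifng had 1 count in 1 LPS-treated WT library and 0 elsewhere, and Ifna4 had 0 in every library. Summed, these genes stood at 0 to 0.468 CPM in resting 3′F, against 0 to 0.674 in resting KO. In LPS-treated 3′F the sum was 0.0548 to 0.733 CPM. Resting KO replicate 3 held no counts of Cd3e and had the lowest T and NK cell sum of the series, 0.449 CPM, with 6 of 7 markers at 0, while its neutrophil sum was 52.4 CPM against 14.3 and 26.3 in the other resting KO libraries. The part of the interferon response in the class I differences was not tested.

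**Figure D5:**
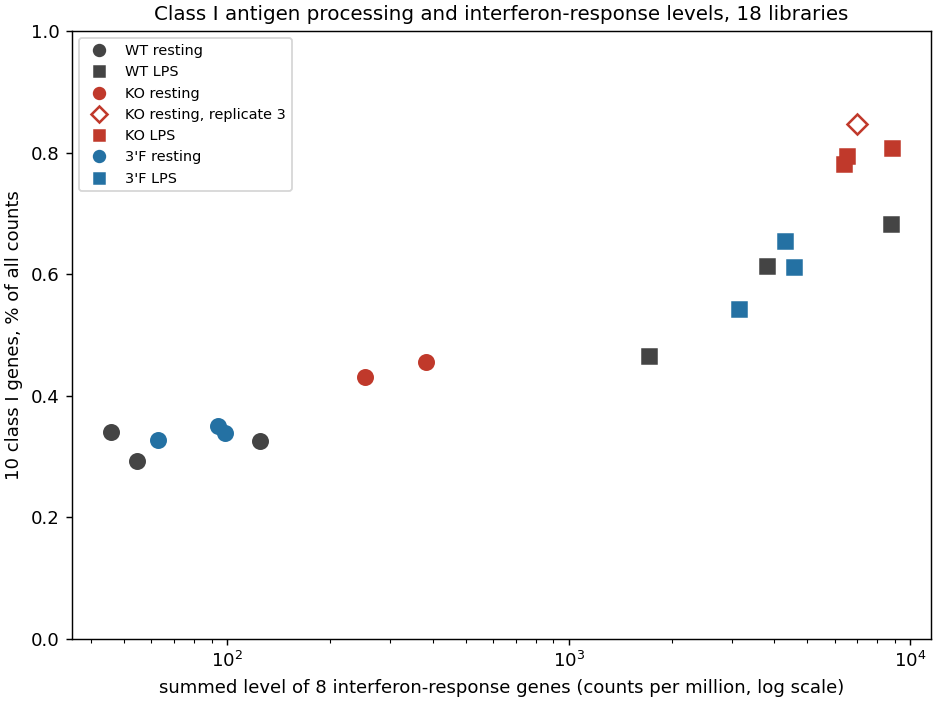
Share of all raw counts, without TMM scaling, held by the 10 class I genes (y axis, percent) against the summed level of 8 interferon-response genes (x axis, TMM-scaled CPM on a log scale) in the 18 libraries, with an open diamond for resting KO replicate 3. The 2 other resting KO libraries, at 0.431% and 0.456%, lie between the other resting libraries and the LPS-treated ones, and the diamond lies at 0.847%.

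Across the 18 libraries the 10 genes followed each other closely. As a description over libraries that share treatment groups, Pearson's r of log2 CPM for the 45 pairs ran from 0.711 (B2m and H2-D1) to 0.996 (Psmb8 and Psmb9), with a median of 0.951. Against the mean profile of the 10 genes, Tap1 was closest (r = 0.993) and H2-D1 farthest (r = 0.833). Among all other genes kept, the 5 with the profile most like that mean were Ogfr, Ifi35, Parp10, Herc6 and Igtp, with r of 0.993 to 0.994 over the same 18 libraries.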

How the data were processed

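RNA-seq of 18 BMDM libraries was analysed from 1 table of raw counts. Per the labels and the study's methods, the authors extracted RNA with Trizol, depleted ribosomal RNA, prepared directional libraries (NEBNext Ultra II), trimmed reads with cutadapt 1.8.3, removed ribosomal reads and aligned the rest to mm10 with HISAT2 2.1.0. They counted reads per Gencode gene with featureCounts 1.5.3, stranded and at a mapping quality of at least 50, which drops reads that fit several places. The deposited counts were used as they stand, for protein-coding genes. The deposited gene length, per the file headers, served for values per kilobase.

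Groups were taken from the labels. The 10 genes and the lists around them were chosen with earlier results of these data known. All 10 genes are named with their values, and of the other lists up to 3 called genes with the largest change. One regulator of the lists is not reported here. Genes were filtered with filterByExpr, scaled by TMM and tested with edgeR 4.0.16 (quasi-likelihood F test, R 4.3.3) in 1 fit of all 6 groups, with Benjamini-Hochberg adjustment over the 11357 genes kept and a threshold of 0.05. Each p-value of this fit rests on 1 estimate of the spread per gene, shared by the 6 groups of 3 libraries. Resting KO replicate 3 thus also enters the spread used for comparisons without resting KO. Resting and LPS cultures shared mice, which this fit did not model. Total counts of 4071084 to 19818043 per library set the precision, and the shallowest library is the least certain. The counts of every pair of replicates differed beyond Poisson noise, so all 18 libraries were kept apart. Ratios were compared by exact permutation (SciPy 1.17.1). The scripts were tested on simulated data. Alternatives were DESeq2 1.42.0, its size factors, limma 3.58.1 (voom with quality weights), no filter, groups compared alone, a replicate block and each library left out. Coordinates came from Gencode M21 on GRCm38, in which 21679 of 21734 gene IDs were found, and sequences from RefSeq on GRCm38.p6, with windows for 8 of the 10 genes.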

Additional observations from a re-analysis of the deposited data

How the results depend on the processing

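The calls were recomputed with DESeq2, with DESeq2's size factors in edgeR, without the filter on low counts, with limma-voom and sample quality weights, with the compared groups fitted alone, with a replicate block, and without each library in turn. In all of these, 9 or 10 of the genes were called after LPS in WT and in 3′F, and 0 of 10 between 3′F and WT or for either difference of LPS responses. The LPS response in KO, with 3 genes called, gave 5 without the filter, 5 with DESeq2, 10 with voom weights, 0 with the groups alone and 9 with the replicate block. KO against WT at rest, with 6 called, gave 10 with DESeq2 and 0 with the groups alone, and its median log2 difference was 0.57 with voom weights against 1.46. KO against WT after LPS, with 0 called, gave 2 with DESeq2, 2 with voom weights and 1 with the groups alone. KO against 3′F at rest, with 6 called, gave 0 with the groups alone, and after LPS, with 0 called, gave 2 with voom weights and 10 with the groups alone. The cause was not tested. Over all genes, the groups alone gave 396 calls for KO against WT at rest, against 1067, and 16 for KO against 3′F at rest, against 1464. Leaving out 1 library gave 0 to 10 genes called for the LPS response in KO (0 without resting KO replicate 1, resting KO replicate 2 or LPS-treated KO replicate 2, 1 without either other LPS-treated KO library, and 10 without resting KO replicate 3). It gave 0 to 10 for KO against WT at rest (2 without resting WT replicate 1, 0 without replicate 2 and 1 without replicate 3, and 9, 10 and 1 without resting KO replicates 1, 2 and 3) and 0 to 9 for KO against 3′F at rest (0 without resting KO replicate 3, and 4, 2 and 1 without resting 3′F replicates 1, 2 and 3).

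Resting and LPS libraries of the same number deviated from their group means with correlations of 0.05 to 0.29 in WT, 0.03 to 0.32 in KO and 0.05 to 0.29 in 3′F, which were not all above 0.1. Libraries of the same number carried the same column letter, but no label said that these came from the same mouse. For the LPS responses and their differences the block was the replicate number within each genotype. In the comparisons between genotypes the same number formed 1 block across genotypes, although these were different mice. Such libraries correlated at -0.29 to 0.21. The block raised the calls for the LPS response in KO from 3 to 9 and moved the median KO difference in LPS response from -0.92 to -0.47. It lowered those for KO against WT and KO against 3′F at rest from 6 to 5 calls each. The count called was the same in the other 8 comparisons. Every resting library of WT and 3′F correlated best with the LPS library of its own number, whereas resting KO replicate 3 correlated best with LPS-treated KO replicate 2 (0.12).

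Some estimates turned their sign, none of them called with all libraries. Without the filter these were 3′F against WT at rest for Tap1 (-0.0059) and Nlrc5 (-0.041) and the 3′F difference in LPS response for Tap2 (0.035). With voom weights they were 3′F against WT at rest for Tap1 (-0.047) and Nlrc5 (-0.10), 3′F against WT after LPS for Tap1 (0.011), Psmb9 (0.016) and Psmb10 (0.015), the KO difference in LPS response for B2m (0.13), Tap2 (0.27) and Psmb8 (0.15), and the 3′F difference for Tap1 (0.058) and Tap2 (0.019). With the replicate block they were the 3′F difference in LPS response for Tap1 (0.026) and Tap2 (0.033) and 3′F against WT after LPS for Tap1 (0.11), Psmb8 (0.037), Psmb9 (0.093) and Psmb10 (0.069). Without 1 library in turn, the log2 ranges of such estimates were Tap1 -0.036 to 0.16, Tapbp -0.29 to 0.061, Nlrc5 -0.081 to 0.091 and Psmb9 -0.00061 to 0.38 for 3′F against WT at rest. They were H2-K1 -0.48 to 0.0056, H2-D1 -0.39 to 0.017, B2m -0.54 to 0.078, Tap1 -1.99 to 0.024, Tap2 -1.03 to 0.45, Nlrc5 -1.63 to 0.022, Psmb8 -1.25 to 0.37 and Psmb9 -1.70 to 0.26 for the KO difference in LPS response. They were H2-K1 -0.29 to 0.0035, Tap1 -0.36 to 0.28, Tap2 -0.19 to 0.22, Nlrc5 -0.26 to 0.39 and Psmb9 -0.49 to 0.093 for the 3′F difference in LPS response. They were H2-K1 -0.12 to 0.17, H2-D1 -0.10 to 0.21, B2m -0.15 to 0.19, Tap1 -0.32 to 0.32, Tap2 -0.27 to 0.14, Tapbp -0.11 to 0.20, Nlrc5 -0.26 to 0.39, Psmb8 -0.27 to 0.20, Psmb9 -0.30 to 0.28 and Psmb10 -0.20 to 0.22 for 3′F against WT after LPS. They were Psmb8 -0.045 to 1.57 for KO against 3′F at rest. The shallowest library held 4071084 counts, and 3 libraries a group leave wide intervals for single genes.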
